A study of Mus musculus with 6 samples.

Results

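Inflammasomes are protein machines that macrophages build when a sensor in the cytosol meets microbial material or cell damage. A sensor recruits caspase-1, directly or through the adaptor ASC (the product of Pycard), and the caspase then cuts the precursors of interleukin-1 beta and interleukin-18 and opens the pore protein gasdermin D. The parts studied here are the genes of 4 sensors (Nlrp3, Naip2, Naip5, Aim2), the adaptor Pycard, 2 inflammatory caspases (Casp1, Casp4) and 3 substrates (Gsdmd, Il1b, Il18). These 10 genes were taken by symbol from 54532 gene entries, and all 10 were found.

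The cells were RAW264.7, a single mouse macrophage line from a virus-induced tumour, which is known to lack ASC. The cells were cultured for 3 d. Gel/S, the control, stood for plain GelMA (a methacryloyl gelatin hydrogel) under static culture. C/D stood for GelMA/PEDOT:PSS+PLLA/PDA, a conductive gel system, with ultrasound at 48 kHz for 5 min. Each group had 3 libraries. The labels of the C/D samples also hold the word dynamic, where those of Gel/S say static. Gel material, ultrasound and any other part of dynamic culture changed together and cannot be told apart. Nothing in the labels says that the libraries came from separate cultures, so the spread behind each p-value is that between these samples and may be technical. The letters US in the column names were taken to mean ultrasound, a treatment that only C/D received. The labels do not state this link, and every direction below depends on it.

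Libraries held 12818831 to 16525699 counts. Of 9 macrophage markers, 8 reached a mean of 1 FPKM (fragments scaled by gene length and library size, as deposited), and only Mertk stayed at 0 to 2 counts per library. The summed FPKM of the macrophage markers was 13527 to 14121 in Gel/S and 11007 to 11176 in C/D. Most of that sum was Lyz2 (9627 to 10754 against 7922 to 8085 FPKM). Csf1r (507 to 616 against 370 to 396 FPKM) and Cd14 (1422 to 1671 against 1181 to 1251 FPKM) were also lower in every C/D library. The ranges of Itgam, Fcgr1, Cd68, Adgre1 and Spi1 overlapped between the groups. Summed markers of T cells, B cells, fibroblasts and epithelium stayed at or under 0.553 FPKM in every library, with Trac, Ms4a1, Col1a2, Dcn, Epcam, Krt18 and Cdh1 at 0 counts throughout. Of 6 neutrophil markers only Csf3r reached a mean of 1 FPKM, with 12.97 to 13.9 FPKM in Gel/S and 9.77 to 10.5 in C/D, and S100a9 and Mpo had 0 counts. Of 5 osteoclast markers 3 reached that mean, with a sum of 47.2 to 49.2 FPKM in Gel/S and 36.6 to 41.95 in C/D. Among them Dcstamp was lower in C/D (29.4 to 30.7 against 14.2 to 16.05 FPKM), Acp5 was higher (13.6 to 15.8 against 18.9 to 24.4 FPKM) and Calcr had 0 counts. Mitochondrial transcripts took 5.59% to 9.02% of counts in Gel/S and 9.17% to 10.4% in C/D, and long intergenic RNAs took 0.549% to 0.606% and 0.815% to 0.871%. These marker levels and shares differed with the group, and their part in the results below was not tested. Gel/S 1 stood apart from the other Gel/S libraries, with a chi-square per gene of 45.6 and 19.8 against them and 10.1 between those. Without it Nlrp3, Naip5, Aim2, Casp1 and Gsdmd kept their calls, with log2 fold changes of −0.36, 0.50, 0.29, 0.45 and 0.30, and Naip2, Casp4 and Il18 lost theirs. In such bulk samples, fewer cells with a transcript and less of it per cell cannot be told apart.

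The genes lie at several loci of GRCm38. Nlrp3 is at chr11:59541568-59566956, Aim2 at chr1:173350879-173466040, Pycard at chr7:127989708-127993867, Gsdmd at chr15:75862327-75867408, Il1b at chr2:129364570-129371139 and Il18 at chr9:50554827-50581840. Casp1 (chr9:5298517-5307265) and Casp4 (chr9:5308828-5336783) are neighbours, as are Naip2 (chr13:100144063-100202092) and Naip5 (chr13:100211739-100246323), which belong to a cluster of near copies. The 250 bases before the start of the Naip pair are shown because these paralogs moved in opposite directions, as described below. Both come from RefSeq (GRCm38.p6, minus strand, written 5′ to 3′), for Naip2 from chr13:100202123-100202372 and for Naip5 from chr13:100247337-100247586, and the RefSeq start of Naip5 lies upstream of the gene end in the deposited table. Capitals mark the block that a local alignment paired between them.
Naip2: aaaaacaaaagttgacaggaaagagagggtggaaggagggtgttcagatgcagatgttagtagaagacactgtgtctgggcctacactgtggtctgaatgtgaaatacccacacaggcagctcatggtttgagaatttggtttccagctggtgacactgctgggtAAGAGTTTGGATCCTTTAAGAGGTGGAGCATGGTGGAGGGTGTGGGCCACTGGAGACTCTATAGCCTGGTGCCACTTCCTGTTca
Naip5: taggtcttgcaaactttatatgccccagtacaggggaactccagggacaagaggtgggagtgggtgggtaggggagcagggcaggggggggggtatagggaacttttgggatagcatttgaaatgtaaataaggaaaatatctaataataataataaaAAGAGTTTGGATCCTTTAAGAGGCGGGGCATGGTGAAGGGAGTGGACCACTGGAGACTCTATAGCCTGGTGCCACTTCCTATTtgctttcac
The block spans 83 aligned bases, of which 77 (92.8%) are identical, and it runs from base -85 to -3 before the start of Naip2 and from -92 to -10 before that of Naip5.

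Windows of the same length are shown for Casp1 (chr9:5298267-5298516) and Nlrp3 (chr11:59541319-59541568), both on the plus strand, because they kept opposite calls in every setting tried. RefSeq has another start for Nlrp3, whose window (chr11:59542436-59542685) was searched but is not shown. Capitals mark motif matches.
Casp1: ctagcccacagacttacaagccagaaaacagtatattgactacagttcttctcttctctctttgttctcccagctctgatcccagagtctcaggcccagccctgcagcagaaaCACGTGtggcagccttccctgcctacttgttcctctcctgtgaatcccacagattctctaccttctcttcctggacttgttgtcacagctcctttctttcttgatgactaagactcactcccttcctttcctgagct
Nlrp3: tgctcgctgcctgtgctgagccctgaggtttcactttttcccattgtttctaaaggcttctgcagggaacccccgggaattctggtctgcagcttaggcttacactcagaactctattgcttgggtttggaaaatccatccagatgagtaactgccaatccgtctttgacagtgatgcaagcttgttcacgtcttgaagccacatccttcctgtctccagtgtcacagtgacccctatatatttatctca
A search on both strands for 7 motifs covered the 11 RefSeq windows of 9 of the 10 genes, the one without an entry being Gsdmd. It found 1 match, the E-box CACGTG at bases -137 to -132 before Casp1, a motif present in 6.02% of 32851 windows of all genes. The other motifs were GAAA, any 2 bases and GAAA (interferon-stimulated response element core, 2.98% of all windows), GGAA, any 2 bases and GAAA (ETS-IRF composite, 2.3%, which can overlap the former), GGGA, any base and TTTCC (NF-kB, 0.356%), TGANTCA (AP-1, 6.75%), TTCNNNGAA (STAT, 7.02%) and TGACGTCA (CRE, 1.55%). Only exact matches to these letters were counted, so sites that vary from them would be missed. An example is GGGGATTTCC in the Casp4 windows, which varies from the NF-kB letters used here and was not counted. Letters in a window, matched or not, show no binding.

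The comparison of C/D with Gel/S asks which transcripts of the macrophages change when the gel conducts and ultrasound is applied. Of the 10 genes, 9 reached the mean of 1 FPKM needed for testing, and Pycard did not. Transcripts of Casp1, Casp4, Gsdmd, Il18, Naip5 and Aim2 rose in C/D, those of Nlrp3 and Naip2 fell, and Il1b did not pass the test. The changes were modest, from 1.26-fold to 1.44-fold. Among all 11708 genes tested, 27.0% passed an adjusted p of 0.05 (edgeR quasi-likelihood test, Benjamini-Hochberg), 13.1% higher and 13.9% lower in C/D, beside 6 and 2 of these 9. The 10 genes were chosen with earlier results of these data known, so these shares are no test of them as a set. Of the 9, 3 were higher when Gel/S 3, C/D 1 or C/D 2 was removed, and 1 was lower when Gel/S 1 or any C/D library was. The median log2 fold change of the 9 was 0.33, and that of all tested genes was 0.01. Of the calls over all genes 48.4% were higher. With limma on log2(FPKM + 1) 40.9% were, and with limma on FPKM rescaled to an equal sum (TPM) 29.5% were and the median of all genes was −0.12.

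**Figure D1:**
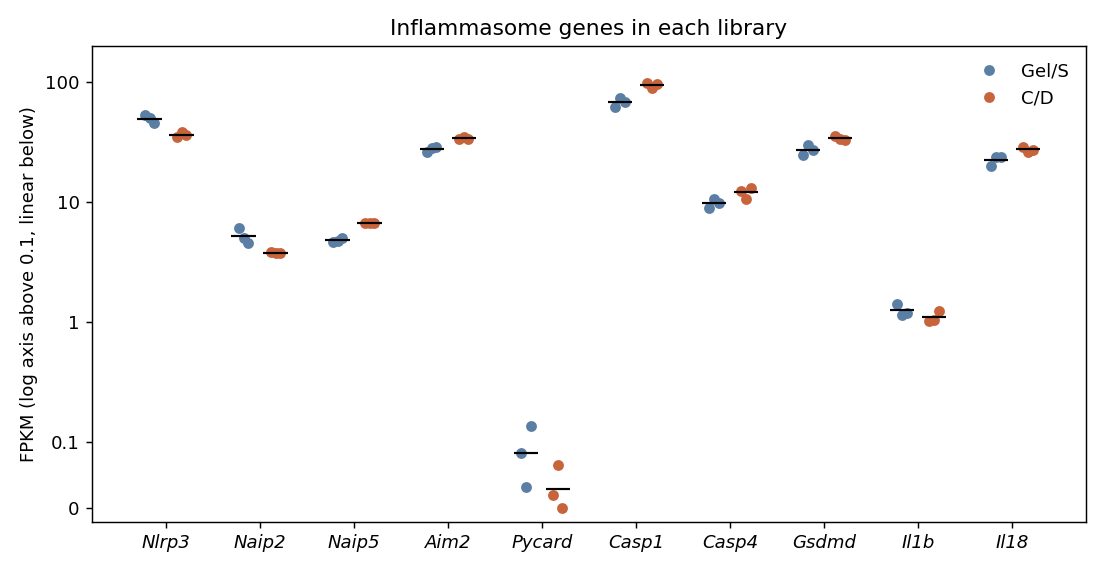
FPKM (log axis above 0.1, linear below) of each inflammasome gene in the 3 Gel/S libraries (blue) and the 3 C/D libraries (orange), replicates 1 to 3 from left to right, with a line at each group mean. Casp1 is highest in both groups, Il1b sits near 1 FPKM and Pycard between 0 and 0.135 FPKM.

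Among the sensors, Nlrp3 had the highest mean level in both groups. Its protein responds to potassium loss and membrane damage. Nlrp3 stood at 53.0, 49.99 and 45.9 FPKM in Gel/S 1 to 3 and at 34.7, 38.5 and 36.2 FPKM in C/D 1 to 3. Every C/D library lay below every Gel/S library. The group means were 49.6 ± 3.58 and 36.5 ± 1.90 FPKM (SD, n = 3), and the log2 fold change was −0.40 (SE 0.0869, edgeR adjusted p = 0.00677). This call held under all 15 alternatives, with log2 fold changes of −0.53 to −0.35 and a highest adjusted p of 0.0361.

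Aim2, a sensor of DNA in the cytosol, went the other way. Its levels were 26.0, 28.2 and 28.7 FPKM in Gel/S and 33.4, 35.0 and 33.4 FPKM in C/D, without overlap. The log2 fold change was 0.34 (SE 0.0828, edgeR adjusted p = 0.0117). It lost its call without C/D 2 (adjusted p = 0.0622) and on TPM with limma, where the log2 fold change was 0.20 (adjusted p = 0.0942). In the deposited gene model Aim2 spans part of Cadm3 on the other strand, which had 0 counts in all 6 libraries.

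NAIP proteins bind parts of bacterial flagella and secretion needles and pass the signal to NLRC4. Naip5, which binds flagellin, was at 4.63, 4.72 and 4.97 FPKM in Gel/S and at 6.66, 6.68 and 6.69 FPKM in C/D. Naip2, which binds the inner rod of secretion systems, was at 6.02, 4.96 and 4.56 FPKM in Gel/S and at 3.79, 3.79 and 3.77 FPKM in C/D. Neither gene's groups overlapped, and C/D libraries were nearly level while Gel/S 1 was highest for Naip2. The log2 fold changes were 0.53 for Naip5 (SE 0.0940, edgeR adjusted p = 0.00259) and −0.41 for Naip2 (SE 0.119, edgeR adjusted p = 0.0255). Naip5 kept its call in all 15 alternatives (highest adjusted p = 0.0367). Naip2 lost it without Gel/S 1 (log2 fold change −0.30, adjusted p = 0.0661), without C/D 1, 2 or 3 (adjusted p of 0.0690, 0.0812 and 0.0766) and on TPM (0.0544).

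Within each library the FPKM ratio of Naip5 to Naip2, a measure that does not depend on library scaling, was 0.769, 0.950 and 1.09 in Gel/S and 1.76, 1.77 and 1.77 in C/D. Naip2 thus led in Gel/S 1 and 2, and Naip5 in Gel/S 3 and all C/D libraries. The group means of the ratio were 0.937 ± 0.161 and 1.77 ± 0.00861 (SD, n = 3), with an exact permutation p of 0.1 (2-sided), and groups of 3 can give no smaller value. This ratio was chosen after the values were seen. The neighbouring Naip6, another flagellin sensor, rose from 2.24 ± 0.270 to 2.97 ± 0.103 FPKM (log2 fold change 0.45, edgeR adjusted p = 0.0200), a call lost when Gel/S 3, C/D 2 or C/D 3 was removed (adjusted p of 0.0716, 0.0724 and 0.0642), with limma on log2(FPKM + 1) (0.0613) or log2(FPKM + 0.1) (0.0599) and on TPM (0.121). Naip1, the needle sensor, had 1 to 14 counts per library.

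These values carry a limit of sequence. Of the 50-base windows in GENCODE M21 transcripts of Naip5, 36.9% also occur in other genes. The shares were 22.3% in Naip6, 14.5% in Naip3, 13.8% in Naip1 and 8.83% in Naip2, and a window can occur in several. For Naip2 the share was 19.1%, with 12.3% in Naip1, 10.7% in Naip3 and 9.40% in Naip5. For Naip6 it was 21.5%, with 16.9% in Naip5. The sources used here do not say how reads that match several genes were counted, so the split of reads among Naip genes is uncertain. Nlrp3, Casp1, Gsdmd, Il1b and Il18 shared 0 such windows with other genes, Casp4 0.240% and Aim2 0.742%.

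**Figure D2:**
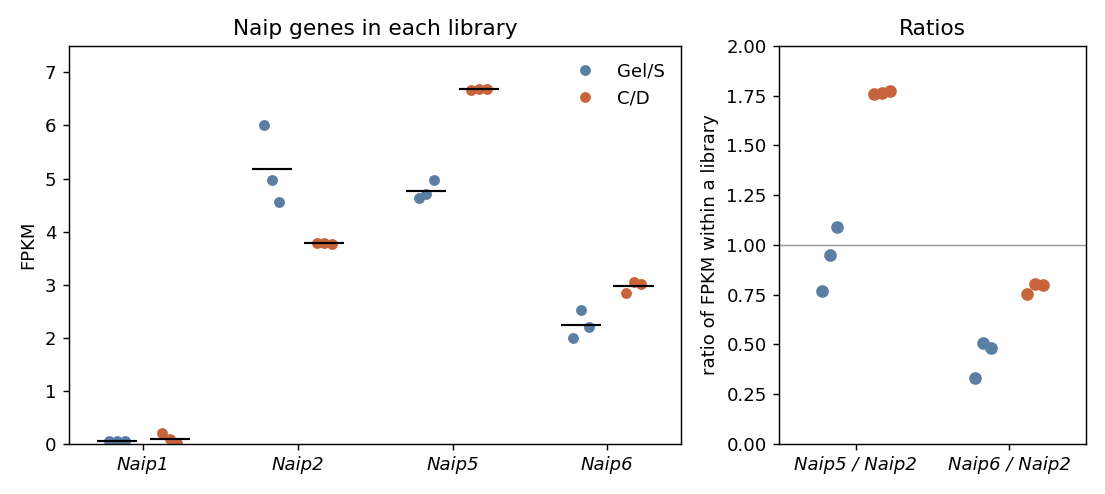
Left, FPKM of the 4 Naip genes per library, Gel/S in blue and C/D in orange, replicates 1 to 3 from left to right and a line at each group mean. Right, ratios of FPKM within each library, where Naip5 over Naip2 is 0.769 to 1.09 in Gel/S and 1.76 to 1.77 in C/D.

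Pycard encodes ASC, which links NLRP3 and AIM2 to caspase-1 and which NLRC4 can partly do without. It had 5, 2 and 8 counts in Gel/S and 1, 4 and 0 counts in C/D, or 0 to 0.135 FPKM. The 0 of C/D 3 allows up to 3 counts, or 0.201 CPM, counts scaled to library size (counting error only). The groups overlapped. With no filter on low values the edgeR adjusted p was 0.392, and no fold is given at such counts. In the same libraries Casp1 stood at 61.3 to 98.7 FPKM. Pycard overlaps Gm45205, a gene model on the other strand with 1 to 5 counts per library, and 11.7% of its 50-base windows are shared, nearly all with that model.

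Casp1, the caspase that cuts both cytokine precursors and gasdermin D, had the highest level of the 10 genes, at the 94.8th percentile of the tested genes' mean FPKM. It stood at 61.3, 73.9 and 68.3 FPKM in Gel/S and at 98.7, 89.3 and 97.0 FPKM in C/D. All C/D libraries were above all Gel/S libraries. The group means were 67.8 ± 6.31 and 94.99 ± 5.03 FPKM (SD, n = 3), a 1.44-fold rise (log2 fold change 0.53, SE 0.0955, edgeR adjusted p = 0.00282). The call held in all 15 alternatives (log2 fold change 0.40 to 0.60, highest adjusted p = 0.0179).

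Casp4 encodes the mouse caspase-11, which binds bacterial lipopolysaccharide in the cytosol and cuts gasdermin D. Its levels were 8.91, 10.6 and 9.87 FPKM in Gel/S and 12.4, 10.5 and 13.1 FPKM in C/D. The groups overlapped, since C/D 2 lay below Gel/S 2. The log2 fold change was 0.33 (SE 0.112, edgeR adjusted p = 0.0445). The call was lost in 9 of 15 alternatives (adjusted p over all of them 0.0158 to 0.195). Those include the removal of replicate 1 or 3 from Gel/S (0.0710 and 0.112) and from C/D (0.131 and 0.167), and on TPM its log2 fold change was 0.19.

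Within libraries, the FPKM ratio of Casp1 to Nlrp3, also chosen after the values were seen, was 1.16, 1.48 and 1.49 in Gel/S and 2.84, 2.32 and 2.68 in C/D. Casp1 was thus above Nlrp3 in all 6 libraries and the C/D ratios were all larger (exact permutation p = 0.1, 2-sided, as before the lowest attainable).

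Gsdmd, whose product forms the pores of pyroptosis, stood at 24.4, 29.8 and 27.0 FPKM in Gel/S and at 35.5, 33.5 and 33.0 FPKM in C/D. The groups did not overlap. Its log2 fold change was 0.37 (SE 0.0957, edgeR adjusted p = 0.0152). Leaving out Gel/S 3, C/D 1 or C/D 2 ended the call (adjusted p of 0.0579, 0.0637 and 0.0508), as did TPM (log2 fold change 0.24, adjusted p = 0.0612).

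The cytokine precursors differed in level. Il18, which many macrophages express at rest, was at 20.1, 23.5 and 23.8 FPKM in Gel/S and at 28.8, 26.3 and 27.3 FPKM in C/D. The C/D libraries were all higher, and the log2 fold change was 0.33 (SE 0.110, edgeR adjusted p = 0.0432). That call was lost in 11 of 15 alternatives, including the removal of any library except Gel/S 2 (adjusted p of 0.0938 without Gel/S 1, 0.0771 without Gel/S 3 and 0.129, 0.0850 and 0.103 without C/D 1 to 3). Il18 is the shortest of the 10 gene models, at 1031 bases, and with a trend on gene length taken out of each library its log2 fold change was 0.14 (adjusted p = 0.291), while on TPM it was 0.20 (0.109). Its first part overlaps Bco2 on the other strand, which had 140 to 153 counts in Gel/S and 175 to 264 in C/D, against 331 to 436 for Il18.

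Il1b, the inflammatory cytokine gene that macrophages switch on through NF-kB, was near the lowest level tested, at the 2.6th percentile. It had 43, 35 and 35 counts in Gel/S and 25, 32 and 35 counts in C/D, or 1.41, 1.14 and 1.18 and 1.01, 1.04 and 1.22 FPKM. The groups overlapped and the log2 fold change was −0.14 (95% interval −0.69 to 0.40, edgeR adjusted p = 0.694), so a change of either sign within that interval is not excluded. The antisense Il1bos, which overlaps it, had 2 to 6 counts per library.

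**Figure D3:**
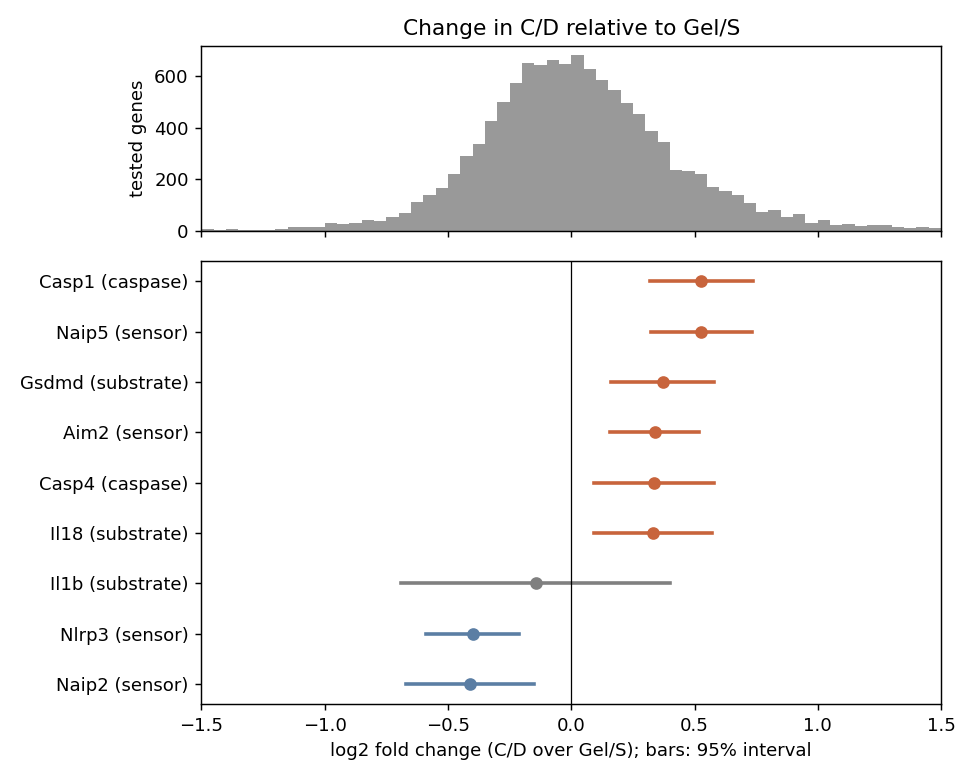
Top, histogram of log2 fold changes (C/D over Gel/S) of all 11708 tested genes between −1.5 and 1.5. Bottom, the 9 tested inflammasome genes with their 95% intervals, orange (higher) or blue (lower) below an adjusted p of 0.05 and grey otherwise; Casp1 and Naip5 lie at 0.53, Nlrp3 at −0.40 and Naip2 at −0.41.

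The order of levels per length changed in its middle part. In Gel/S the mean FPKM ran from Casp1 (67.8) and Nlrp3 (49.6) to Aim2 (27.6), Gsdmd (27.1), Il18 (22.5), Casp4 (9.81), Naip2 (5.18), Naip5 (4.77), Il1b (1.24) and Pycard (0.0835). The ranges of Aim2 and Gsdmd overlapped there, as did those of Naip2 and Naip5. In C/D, Casp1 (94.99) stood further apart, and Nlrp3 (36.5), Gsdmd (34.0) and Aim2 (33.9) had overlapping ranges. Below them came Il18 (27.5), Casp4 (12.0), Naip5 (6.68), Naip2 (3.78), Il1b (1.09) and Pycard (0.0286), with no overlap between neighbours.

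The FPKM of the groups did not overlap for 7 of the 9 tested genes, beside 46.2% of all tested genes. In the authors' deposited table, 4 of the 10 genes (Naip5, Aim2, Casp1, Gsdmd) have higher and 2 (Nlrp3, Naip2) lower values in C/D past an adjusted p of 0.05, beside 14.9% of its 21850 entries. Casp4 and Il18 have adjusted p of 0.0862 and 0.108 in the authors' deposited table.

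**Figure D4:**
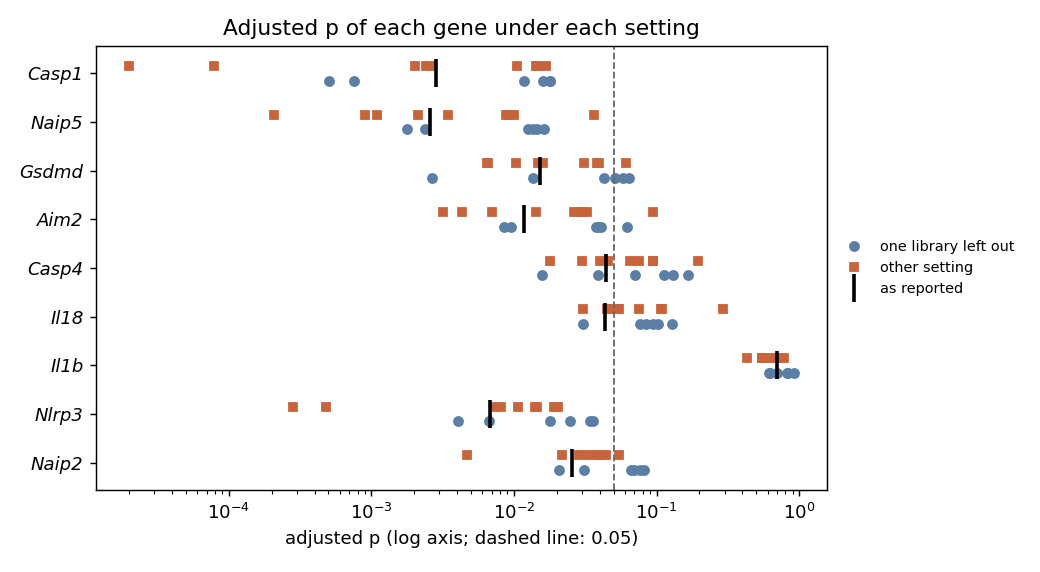
Adjusted p (log axis) of each tested gene as reported (black bar), with one library left out (blue circles) and under other settings (orange squares), with the threshold of 0.05 dashed. Casp1, Naip5 and Nlrp3 stay left of the line throughout, and Il1b stays right of it.

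Genes that act around these were read from 7 lists with 69 genes, of which 50 reached 1 FPKM. Of the 50, 3 rose and 9 fell (18.0%), beside 13.1% and 13.9% of all tested genes, and 24.0% changed either way, near the 27.0% of all tested genes. The median of their log2 fold changes was −0.08. Removing Gel/S 3, C/D 2 or C/D 3 left 1 higher and removing Gel/S 2 gave 5, while 5, 4 and 5 were lower without C/D 1 to 3. Among 9 other sensors, 4 were tested and 1 (Naip6) rose, beside 13.1% of all tested genes. Nlrc4, the partner of the NAIPs, was at 1.17 ± 0.0834 and 1.37 ± 0.109 FPKM (log2 fold change 0.28, edgeR adjusted p = 0.232). Nlrp1b and Nlrp10 did not pass either, and Nlrp1a, Nlrp6, Nlrp12, Mefv and Naip1 were under 1 FPKM.

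All 14 genes that trigger or license NLRP3 were tested, of which 1 rose and 3 fell (28.6% in all, near the 27.0% of all tested genes). Txnip, a redox and glucose sensor reported to bind NLRP3, rose from 617 ± 20.7 to 931 ± 28.2 FPKM (log2 fold change 0.63, edgeR adjusted p = 0.00134). The fallen genes were the potassium channel gene Kcnk13 (log2 fold change −0.48, edgeR adjusted p = 0.0052), the chloride channel gene Clic4 (−0.55, 0.00713) and the helicase gene Ddx3x (−0.49, 0.0165). Without Gel/S 1, where its level was 64.2 FPKM against 43.8 and 48.9 in the other Gel/S libraries, the log2 fold change of Ddx3x was −0.33 (adjusted p = 0.0150). It lost its call when C/D 1 (0.0795) or C/D 2 (0.0517) was removed and on TPM (0.0566). P2rx7, the ATP-gated channel upstream of NLRP3, was at 12.5 ± 0.607 and 13.4 ± 0.727 FPKM, and Nek7, the kinase that binds NLRP3, at 10.4 ± 1.97 and 9.55 ± 0.893 FPKM, neither past the threshold.

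On the interferon route to caspase-11, 3 of 8 genes were tested and 1 fell, beside 13.9% of all tested genes. This was Irf8, a macrophage factor known to drive Naip genes (23.4 ± 0.775 to 18.9 ± 0.839 FPKM, log2 fold change −0.27, edgeR adjusted p = 0.0287), a call lost without Gel/S 3 or any C/D library (highest adjusted p = 0.114). Irf1 (8.31 ± 1.04 and 10.4 ± 1.67 FPKM) and Irf2, known to drive Gsdmd (10.8 ± 0.552 and 9.85 ± 0.608 FPKM), did not pass. The guanylate-binding genes Gbp2, Gbp3, Gbp5 and Gbp7 and Gm12250 (Irgb10), which expose bacterial lipopolysaccharide, were all under 1 FPKM.

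Of 8 genes for other caspases and death adaptors, 7 were tested, 1 rose and 2 fell, beside 13.1% and 13.9% of all tested genes. Ripk1, a kinase gene of death receptor signalling, fell from 7.76 ± 1.18 to 5.77 ± 0.321 FPKM (log2 fold change −0.38, edgeR adjusted p = 0.0214). It lost its call when C/D 1 (0.0850), C/D 2 (0.0724) or C/D 3 (0.0512) was removed and on TPM (0.0650). Casp8 rose (log2 fold change 0.25, edgeR adjusted p = 0.0436), a call lost in 11 of 15 alternatives, among them leaving out Gel/S 3 or any C/D library (highest adjusted p over all 15 0.378). Casp12 was under 1 FPKM.

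None of the 6 tested genes of release and repair passed edgeR's adjusted p as reported, beside 27.0% of all tested genes. DESeq2 and limma called 0 as well. The edgeR fit with the trend on gene length taken out called 1, Ninj1 (log2 fold change −0.28, adjusted p = 0.0302). In the edgeR fit as reported 1 of the 6, Chmp2a, had an unadjusted p under 0.05 (log2 fold change 0.23). Over its 15 alternatives that log2 fold change ran from 0.06, with the trend on gene length taken out, to 0.29, without Gel/S 3. Ninj1, whose product ruptures dying cells, was at 60.3 ± 1.98 and 52.4 ± 5.95 FPKM, and Il1a was under 1 FPKM. Among 9 brakes, 6 were tested and 2 fell, beside 13.9% of all tested genes. These were the ubiquitin editor Tnfaip3 (6.01 ± 0.547 to 3.73 ± 0.427 FPKM, log2 fold change −0.64, edgeR adjusted p = 0.00189) and its partner Tnip1 (−0.31, 0.0284), which lost its call when replicate 2 or 3 of either group was removed (highest adjusted p = 0.132). In the IL-1 and IL-18 receptor list 10 of 14 genes were tested and 1 fell, beside 13.9% of all tested genes. This was the receptor subunit gene Il18rap (6.35 ± 0.442 to 4.72 ± 0.307 FPKM, log2 fold change −0.39, edgeR adjusted p = 0.0127), which did not pass when C/D 2 (0.0694) or C/D 3 (0.0560) was removed. The ligand-binding receptor genes Il1r1 and Il18r1 were under 1 FPKM, with 0 to 6 counts per library.

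**Figure D5:**
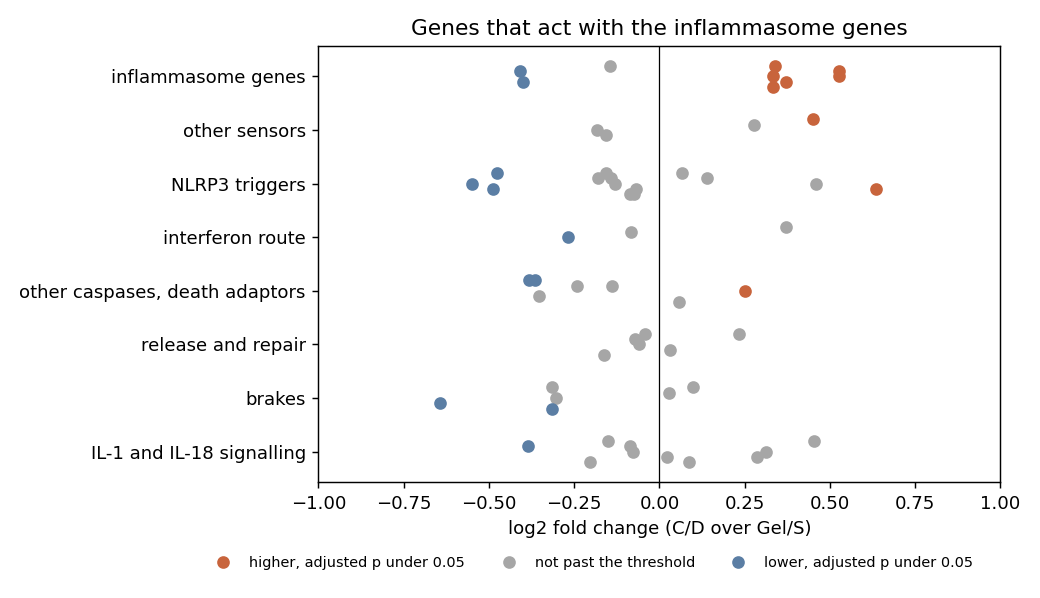
Log2 fold change (C/D over Gel/S) of the tested inflammasome genes and of 7 lists of genes that act with them, 1 dot per gene, orange (higher) or blue (lower) below an adjusted p of 0.05 and grey otherwise; dots are spread vertically within a list for legibility. Of the 50 listed genes 3 are orange and 9 blue, beside 13.1% higher and 13.9% lower among all tested genes.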

How the data were processed

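RNA of RAW264.7 cells was sequenced in 3 Gel/S and 3 C/D libraries, grouped by the sample titles. Raw counts per gene were made by the authors, per the file headers, and FPKM values were also deposited by the authors, with a library scaling that was not given in the sources used here. The deposited signal columns are the authors' group means of scaled counts, the log2 fold changes are the authors' Gel/S over C/D (sign turned here), and the p-values are the authors' own. The genome build was mm10 (GRCm38), as the submitters' processing notes say. Which aligner, counter, annotation and strand setting were used was not given in the sources used here.

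Counts and FPKM of 100 symbols with several entries were summed, 27 symbols turned into dates were restored, and 0 entries lacked a gene. Genes with a mean FPKM of at least 1 (11708) were tested with edgeR 4.0.16 (TMM, quasi-likelihood, R 4.3.3) and Benjamini-Hochberg adjustment over all of them. Limma 3.58.1 and DESeq2 1.42.0 gave alternatives. Each standard error is the size of the log2 fold change divided by the root of F, and the 95% intervals use the t distribution. The pipeline was tested on simulated data. Replicates differed by more than sampling noise (chi-square per gene of 3.57 to 45.6). The coordinates of all 10 genes match GENCODE M21.

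The genes and lists were chosen with earlier results of these data known. All 10 are named, and of each other list up to 4 with the smallest adjusted p under 0.05, or 2 with the smallest p, beside genes under 1 FPKM; others named with values (Nlrc4, P2rx7, Nek7, Irf1, Irf2) were added after values were seen. Irgb10, Pydc3 and Pydc4 were found as Gm12250, Ifi208 and Ifi213 through RefSeq synonyms. The values of 1 listed gene are not reported here.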

Additional observations from a re-analysis of the deposited data

How the results depend on the processing

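The 9 tested inflammasome genes kept the direction of their log2 fold change in all alternatives that gave a value, and Casp1, Naip5, Nlrp3 and Il1b also their side of the threshold. The number of these genes higher in C/D was 3 to 6 and the number lower 1 to 2 with single libraries left out. On TPM (limma, chosen after seeing the data) 2 were higher and 1 lower, and at a mean FPKM of at least 5, where Naip2 and Il1b were not tested, 1 was lower. Genes of the other lists numbered 1 to 5 higher and 4 to 11 lower with single libraries left out. Of these, 1 was higher with limma on log2(FPKM + 1), 1 on log2(FPKM + 0.1) and 1 on TPM, and 5 with the length trend removed (also chosen after seeing the data), where Ninj1 passed (log2 fold change −0.28, adjusted p = 0.0302). Over all genes, 887 to 1989 were higher and 876 to 2089 lower with single libraries left out (887 to 954 and 876 to 1006 where this was Gel/S 3 or a C/D library), and the number higher was 1020 and 1008 with limma at the larger and smaller pseudocount and 633 on TPM. The cause of these moves was not tested. Deviations from the group means correlated at −0.05, −0.06 and 0.06 between same-numbered samples and at −0.10 to 0.14 between the others. These values do not settle whether the replicate numbers pair the samples, which the labels do not say. A replicate block in the edgeR fit gave 1242 genes higher and 1302 lower. Among the genes no longer past the threshold were Casp4 (adjusted p = 0.0750), Il18 (0.0752), Irf8, Casp8 and Tnip1. Depth limits Il1b and Pycard most.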

Other observations

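Further ratios within libraries were chosen after the values were seen. The FPKM ratio of Casp1 to Casp4 was 6.89, 6.94 and 6.92 in Gel/S and 7.95, 8.48 and 7.39 in C/D. Counting error alone gives Casp4 in Gel/S 1, at 33.2 CPM, a 95% interval of 30.4 to 36.2 CPM. As a share of its value this is wider than the spread of the Gel/S ratios, so their closeness shows no fixed proportion. That of Casp1 to Gsdmd was 2.51, 2.48 and 2.53 in Gel/S and 2.78, 2.67 and 2.94 in C/D. Both ratios were higher in every C/D library than in any Gel/S library (2-sided exact permutation p = 0.1 for each, the smallest that 3 against 3 allow). The gene models differ in length, with 1497 bases for Casp1, 3710 for Casp4 and 2377 for Gsdmd. As reported their log2 fold changes were 0.53, 0.33 and 0.37. With the trend on gene length taken out they lay closer together, at 0.40, 0.38 and 0.35. The part of gene length in these ratios was not tested. The ratio of Il18 to Il1b, the cytokine precursor genes, was 14.2, 20.7 and 20.1 in Gel/S and 28.6, 25.2 and 22.4 in C/D, also without overlap (exact permutation p = 0.1), with 25 to 43 counts of Il1b behind each value.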
